A study of Mus musculus with 10 samples.

Results

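Aminoacyl-tRNA synthetases are the enzymes that load each tRNA with its amino acid, and 35 genes of this family were read on arrays from haematopoietic stem cell-enriched bone marrow cells with and without Mll. The genes were chosen by symbol, as those named for an amino acid's letter followed by ars (such as Aars for alanine), together with Eprs, Ears2 and Pars2. They are 35 of the 18193 genes that the array table named. Of these, 19 encode cytosolic enzymes and 16, with symbols ending in 2, encode mitochondrial ones.

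The mice of both groups carried floxed Mll alleles. The 5 Mll-deficient mice had the genotype Mx1-cre;Mll F/F and the 5 control mice the genotype Mll F/F, so controls lacked cre, and effects of cre and of Mll loss cannot be told apart. Mx1-cre is switched on by interferon, and every mouse had been given pI:pC, a synthetic RNA that provokes interferon, in 3 injections spaced 48 hours apart (50 µg on top of 10 µg for each gram of mouse). All were females aged 8 weeks on the B6.SJL-Ptprca Pep3b/BoyJ background. On day 6 the LSK/CD48- fraction of the marrow (lineage-negative, Sca-1-positive, Kit-positive and CD48-negative cells) was sorted from each mouse, and RNA of 1500 to 10000 cells was amplified and hybridised to 1 Affymetrix array. The study asked which genes depend on Mll, a histone H3 lysine 4 methyltransferase encoded by Kmt2a. Signals are linear and in arbitrary units, scaled to the same mean on every array, and differences are Mll-deficient minus control on the log2(signal + 16) scale with the standard error (SE) of a limma fit across 12582 genes. A gene passed the test when its limma p, adjusted by the Benjamini-Hochberg method over all those genes, was under 0.05. In sorted cells measured in bulk, a change in the mix of cells and a change in RNA per cell cannot be told apart.

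Each synthetase recognises 1 amino acid and its tRNAs, activates the amino acid with ATP and joins it to the tRNA end, where the ribosome can use it. In the cytosol several of them (among them the enzymes for isoleucine, leucine, methionine, glutamine, arginine and lysine and the bifunctional glutamyl-prolyl enzyme Eprs) form a multisynthetase complex, while a separate nuclear-encoded set serves the protein synthesis of mitochondria. Gars and Kars make both the cytosolic and the mitochondrial form of their enzyme from a single gene, so their place among the cytosolic genes follows the symbol only. When uncharged tRNA builds up, the kinase Gcn2 phosphorylates eIF2 alpha, and the factor Atf4 then raises genes of amino acid supply, several cytosolic synthetase genes included.

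Synthetase genes were mostly higher in Mll-deficient cells. Of the 19 cytosolic genes, all tested, 7 rose, 0 fell and 12 did not pass. Of the 16 mitochondrial genes, 15 were tested, of which 1 rose, 0 fell and 14 did not pass, while Mars2 lay below the filter on dim genes. For comparison, 3.76% of all tested genes rose and 1.75% fell. At an unadjusted p under 0.05 in limma, 12 cytosolic and 6 mitochondrial genes were higher and 0 were lower, against 10.5% of all tested genes higher and 10.2% lower (20.7% in either direction). The difference was above 0 for 19 of 19 cytosolic and 13 of 15 mitochondrial genes, where 46.6% of all tested genes had one above 0. The median difference was 0.71 for cytosolic and 0.41 for mitochondrial genes, beside -0.04 for all tested genes. The number of calls rested on single arrays. The cytosolic count was 2 without control replicates 1, 3 or 4 or Mll-deficient replicate 1, and 3 without Mll-deficient replicates 3, 4 or 5. In those fits 2.52% to 4.08% of all tested genes passed, against 5.51% in the reported fit. It was 6 without control replicate 2 or Mll-deficient replicate 2 and 9 without control replicate 5, where 5.46% to 6.97% of all tested genes passed. The mitochondrial count was 0 without control replicates 1, 3 or 4 or Mll-deficient replicates 1, 3 or 5, 2 without control replicate 2, and 4 without control replicate 5 or Mll-deficient replicate 2. Centring each array on its median moved the share of higher calls among all called genes from 68.3% to 81.5%, with 6 cytosolic and 3 mitochondrial calls.

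**Figure D1:**
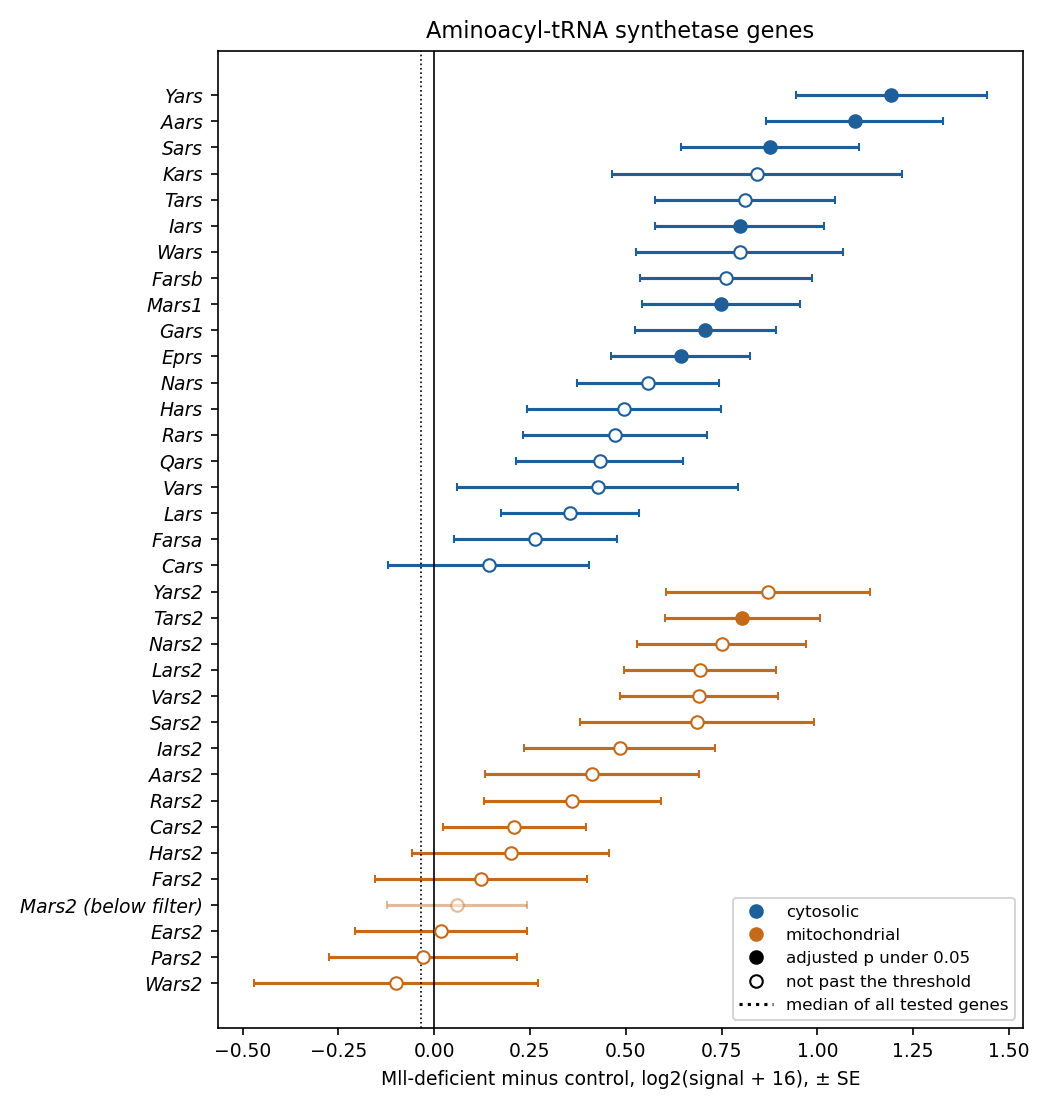
Difference between Mll-deficient and control cells on the log2(signal + 16) scale, with its SE, for each of the 35 synthetase genes (n = 5 arrays per group). Filled points passed the limma test, and the dotted line is the median of all tested genes, -0.04. The 19 cytosolic points all lie above 0, and the mitochondrial ones run from -0.10 (Wars2) to 0.87 (Yars2).

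Averaged over genes, every Mll-deficient array lay above every control array in both compartments. The mean log2 level of the 19 cytosolic genes was 9.15, 9.48, 9.03, 9.17 and 8.96 in control replicates 1 to 5 and 9.88, 9.80, 9.86, 9.76 and 9.77 in Mll-deficient replicates 1 to 5. Control replicate 2 was the highest control, and the Mll-deficient arrays spread less (SD 0.06, n = 5) than the controls (SD 0.20, n = 5). The mean of the 15 tested mitochondrial genes was 7.17, 7.27, 7.27, 7.10 and 7.29 in controls and 7.65, 7.49, 7.73, 7.67 and 7.62 in Mll-deficient arrays. The mean of all tested genes lay between 7.53 and 7.58 on every array.

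**Figure D2:**
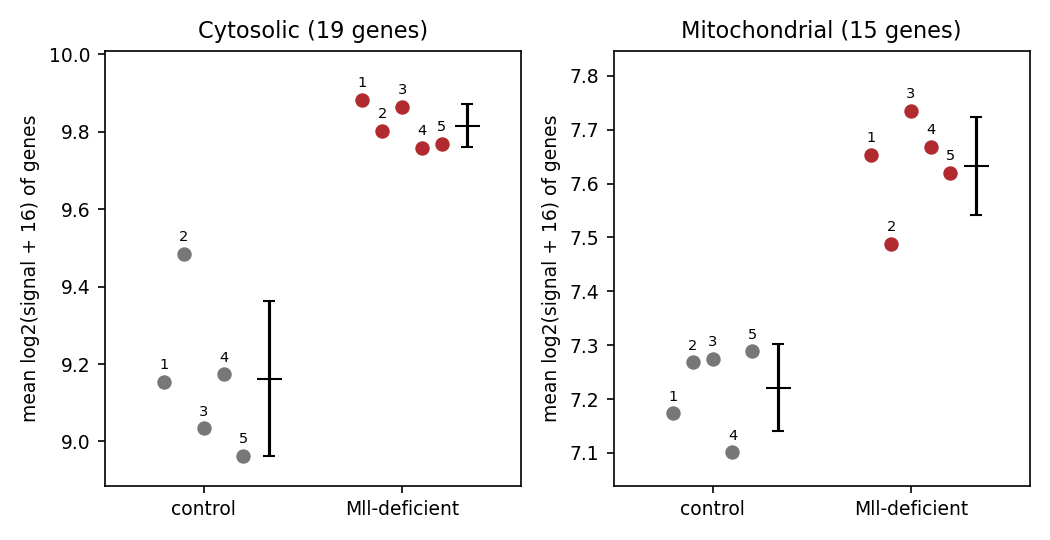
Mean log2(signal + 16) over the tested cytosolic (left) and mitochondrial (right) synthetase genes on each array, numbered by replicate, with the mean and SD of each group (n = 5). The vertical axes do not start at 0 and differ between panels. The lowest Mll-deficient array lies above the highest control array in both panels (9.76 against 9.48, and 7.49 against 7.29).

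Yars and Aars had the largest differences of the family. Yars, the tyrosyl-tRNA synthetase gene, read 129, 132, 74.0, 137 and 56.3 in controls and 283, 275, 220, 289 and 197 in Mll-deficient cells. The groups did not overlap, and control replicates 3 and 5 were the lowest. It rose by 1.19 ± 0.25 (SE, limma adjusted p = 0.0121), or 2.29-fold. Aars, which charges tRNA with alanine and proofreads mischarged serine and glycine, read 448, 537, 264, 418 and 255 in controls and 859, 765, 1007, 723 and 721 in Mll-deficient cells. Here too the groups were apart, and it rose by 1.10 ± 0.23 (SE, limma adjusted p = 0.0125), or 2.14-fold. Yars had 1 probe set, so averaging or changing probe sets could not move its difference. The call of Yars held in all 10 fits with an array removed and under all 12 alternatives. That of Aars held in the same 10 fits, but was lost when its probe sets were averaged (limma adjusted p = 0.0680) and when only its dimmer probe set, which has no cross-matching suffix, was read (0.72, limma adjusted p = 0.281).

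The other 5 cytosolic rises were smaller, and with arrays removed singly each of these calls failed in 6 to 9 of 10 fits. Sars, the seryl-tRNA synthetase gene, read 662, 900, 820, 645 and 454 in controls and 1394, 954, 1789, 1019 and 1305 in Mll-deficient cells, and rose by 0.88 ± 0.23 (SE, limma adjusted p = 0.0369). Iars, for isoleucine, rose from 439 ± 111 to 768 ± 156 (SD, n = 5 each), by 0.80 ± 0.22 (SE, limma adjusted p = 0.0456). In both genes the lowest Mll-deficient array stood just above the highest control (954 against 900 for Sars, 614 against 596 for Iars). Without probe sets ending in _s_at or _x_at neither gene passed, with Sars at 0.74 and Iars at 0.66. The Sars call was also lost when its probe sets were averaged. Mars1, for methionine, which also supplies the initiator tRNA, rose from 810 ± 209 to 1347 ± 173 (SD, n = 5 each), by 0.75 ± 0.21 (SE, limma adjusted p = 0.0438). Its groups overlapped, with control replicate 5 at 1150 and Mll-deficient replicate 4 at 1119. Gars, for glycine, read 972, 1148, 848, 1034 and 741 in controls and 1726, 1419, 1540, 1437 and 1611 in Mll-deficient cells, a rise of 0.71 ± 0.18 (SE, limma adjusted p = 0.0349) with a clear gap between the groups. Eprs, the bifunctional enzyme for glutamate and proline, rose from 1542 ± 184 to 2424 ± 337 (SD, n = 5 each), by 0.64 ± 0.18 (SE, limma adjusted p = 0.0488). Another Eprs probe set read higher on every Mll-deficient array as well (0.52 ± 0.17), while a dim one lay at -0.24 ± 0.28, and averaging the 4 probe sets brought Eprs to 0.29 (limma adjusted p = 0.268).

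**Figure D3:**
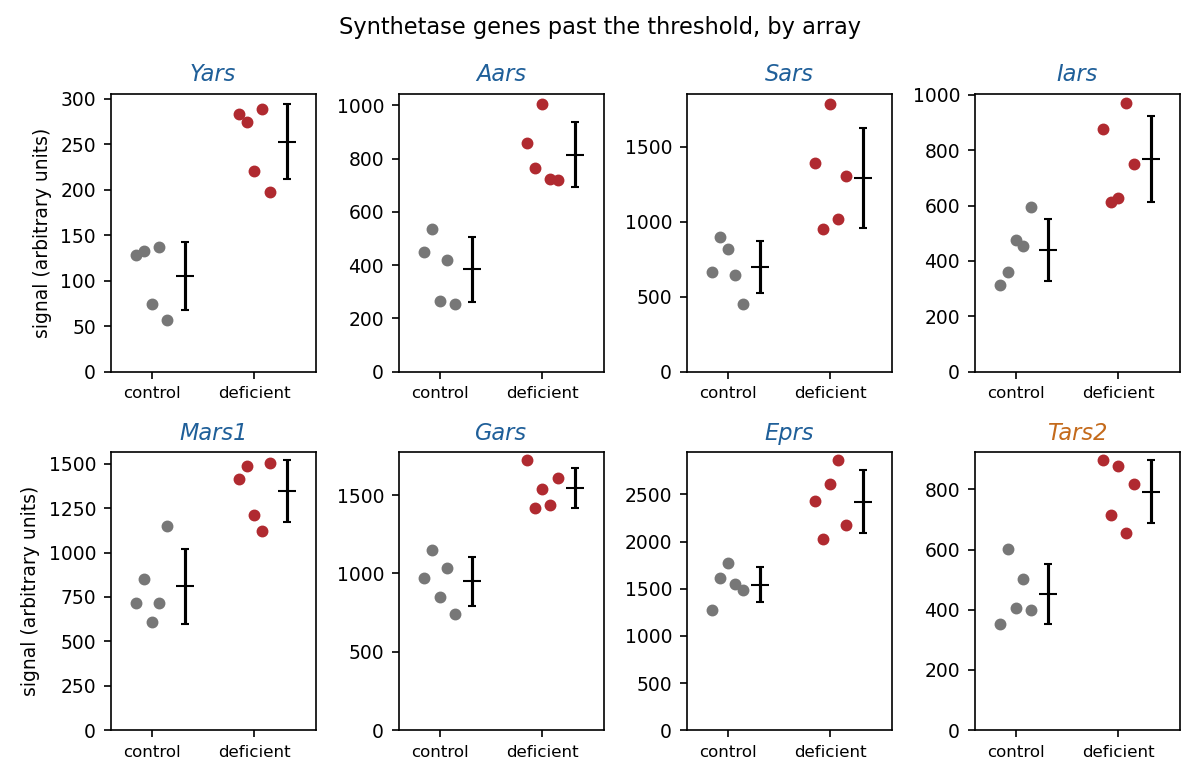
Signal (arbitrary units, axes from 0) of the 8 synthetase genes that passed the test on each of the 5 control (grey) and 5 Mll-deficient (red) arrays, with mean and SD. The groups do not overlap for 7 of them, and for Mars1 control replicate 5, at 1150, lies above Mll-deficient replicate 4, at 1119.

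The promoters of several cytosolic members share a short sequence. RefSeq windows of 300 bases on the GRCm38.p6 build, from 250 before to 50 after the transcription start, were found for 26 of the 35 genes, 12 cytosolic and 14 mitochondrial. There were 27 windows, as Aars2 had more than 1, and each gene was counted once. The core of the amino acid response element is TGATGNAA on either strand, a sequence bound by Atf4 with C/EBP partners. It was present for 5 of the 12 cytosolic genes (Aars, Gars, Iars, Tars and Yars) and for 0 of the 14 mitochondrial ones. Among 10198 tested genes with a window, 2.8% held it, and among the 387 of them that rose, 3.1%. All 5 windows are shown because they hold the element, with each match to it, and to the E-box CACGTG read by Myc and related factors, in capitals. They lie at chr8:111033592-111033891 on the plus strand (Aars), chr6:55037751-55038050 on the plus strand (Gars), chr13:49681880-49682179 on the plus strand (Iars), chr15:11399609-11399908 on the minus strand (Tars) and chr4:129189653-129189952 on the plus strand (Yars), each written along the gene's strand.
Aars: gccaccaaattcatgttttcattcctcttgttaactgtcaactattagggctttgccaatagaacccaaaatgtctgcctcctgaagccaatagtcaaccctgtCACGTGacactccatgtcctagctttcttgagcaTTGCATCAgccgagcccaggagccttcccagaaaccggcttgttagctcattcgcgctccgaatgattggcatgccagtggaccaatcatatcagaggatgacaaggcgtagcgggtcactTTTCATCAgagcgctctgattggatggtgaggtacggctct
Gars: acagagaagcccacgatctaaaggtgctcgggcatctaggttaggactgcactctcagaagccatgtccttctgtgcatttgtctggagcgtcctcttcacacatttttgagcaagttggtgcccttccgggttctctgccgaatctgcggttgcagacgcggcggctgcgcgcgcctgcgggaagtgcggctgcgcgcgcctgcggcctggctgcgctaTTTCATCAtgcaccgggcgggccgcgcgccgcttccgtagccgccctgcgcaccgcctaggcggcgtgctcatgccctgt
Iars: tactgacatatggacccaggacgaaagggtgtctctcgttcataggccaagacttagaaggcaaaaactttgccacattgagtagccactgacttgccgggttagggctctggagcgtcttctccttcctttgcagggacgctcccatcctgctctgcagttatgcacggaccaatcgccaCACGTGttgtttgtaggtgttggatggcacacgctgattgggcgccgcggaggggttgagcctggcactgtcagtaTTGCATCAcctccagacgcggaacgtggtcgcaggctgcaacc
Tars: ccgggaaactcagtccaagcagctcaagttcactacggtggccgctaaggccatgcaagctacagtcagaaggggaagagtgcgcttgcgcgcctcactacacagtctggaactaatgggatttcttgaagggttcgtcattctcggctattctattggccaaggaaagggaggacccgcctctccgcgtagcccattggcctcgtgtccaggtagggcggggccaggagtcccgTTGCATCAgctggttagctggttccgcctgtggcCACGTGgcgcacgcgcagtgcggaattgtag
Yars: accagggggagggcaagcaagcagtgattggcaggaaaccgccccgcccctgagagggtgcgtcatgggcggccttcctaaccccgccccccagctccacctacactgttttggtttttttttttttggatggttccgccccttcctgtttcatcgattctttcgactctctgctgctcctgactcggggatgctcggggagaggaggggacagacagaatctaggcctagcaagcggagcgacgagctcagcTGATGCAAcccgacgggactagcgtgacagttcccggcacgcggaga
Counting the first transcribed base as 1, the element began at position 4 in Yars, 8 in Iars, -15 in Tars and -30 in Gars, and Aars held it at -112 and at 10. The E-box was present in Aars, Iars and Tars of these, and in 4 of 12 cytosolic and 1 of 14 mitochondrial genes in all. It was in 11.6% of tested genes and 17.6% of those that rose. Of the 5 genes with the element, 4 rose and Tars did not pass (0.81 ± 0.23, limma adjusted p = 0.0541). Of the other 7 cytosolic genes with a window, 3 rose, namely Eprs, Mars1 and Sars. Every cytosolic gene that rose had a window, while Cars, Hars, Lars, Nars, Rars, Vars and Wars had none and did not pass. The cytosolic motif counts therefore leave out only genes that did not pass. A further 4 motifs were searched on both strands. The ETS site CCGGAAGT was in 2 cytosolic and 1 mitochondrial genes (8.66% of tested genes and 15.8% of those that rose). The NRF1 site GCGCATGC was in 0 and 3 (5.81% and 7.24%). The inverted CCAAT box ATTGG was in 7 and 6 (42.6% and 40.8%) and the GATA site AGATAA in 1 and 2 (8.11% and 9.04%). In these windows 0 matches overlapped a match to another motif. A match is a description of the letters, not evidence of binding.

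Of the 12 cytosolic genes that did not pass, 4 had differences as large as those that did. Kars, for lysine, differed by 0.84 ± 0.38 (SE, limma adjusted p = 0.214), with controls spread from 206 to 1419. Without control replicate 5, at 206, the Kars difference was 0.43. Tars, for threonine, read 742, 795, 657, 567 and 418 in controls and 1169, 1489, 705, 1166 and 1129 in Mll-deficient cells, where replicate 3 alone lay within the range of the controls. Wars, for tryptophan, an enzyme that interferon is known to raise, differed by 0.80 ± 0.27 (SE, limma adjusted p = 0.0994) on its brightest probe set. Its other probe sets were at 0.13, 0.20 and 0.51, and the mean over Wars probe sets was at 0.41 (limma adjusted p = 0.304). Farsb, which encodes the beta subunit of the phenylalanine enzyme, differed by 0.76 ± 0.22 (SE, limma adjusted p = 0.0579), and Farsa, the alpha subunit, by 0.26 ± 0.21 (limma adjusted p = 0.526). Nars, for asparagine, did not overlap between the groups, with 1206 to 1610 in controls and 1627 to 2413 in Mll-deficient cells (0.56 ± 0.19, limma adjusted p = 0.0941). Lars, for leucine, did not overlap either, with 693 to 983 against 1036 to 1203, a difference of 0.35 ± 0.18 (limma adjusted p = 0.278). The remaining 5 were Hars (histidine, 0.50), Rars (arginine, 0.47), Qars (glutamine, 0.43), Vars (valine, 0.43) and Cars (cysteine, 0.14), each overlapping between the groups, and Cars was dim, at 22.1 ± 11.1 in controls and 24.8 ± 7.59 in Mll-deficient cells (SD, n = 5 each).

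For Hars and Farsb the choice of probe set set the outcome. The Hars probe set that stood for the gene read 7466 ± 3657 in controls (SD, n = 5), with control replicate 5 at 13813 and the other controls between 4843 and 7277. A dimmer Hars probe set rose from 339 on average in controls to 836 in Mll-deficient cells, with no overlap between the groups, by 1.24 ± 0.22 (SE, limma adjusted p = 0.00751 over 27026 probe sets). Without control replicate 5 the brighter probe set differed by 0.75 (limma adjusted p = 0.0176). For Farsb, another probe set rose from 903 to 2011 on average, also with no overlap, by 1.25 ± 0.29 (SE, limma adjusted p = 0.0261 over probe sets). In all, 23 members had more than 1 probe set, 30 further probe sets were tested, 22 of them had the sign of the one that stood for their gene, and these 2 passed, both higher, where 2.12% of all probe sets were higher and 1.16% lower (3.28% together). In the same fit the probe sets that stood for Sars, Gars, Mars1, Iars and Eprs did not pass (limma adjusted p = 0.0504 to 0.0714). Those that stood for Yars, Aars and Tars2 did.

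The cytosolic genes were also grouped by assembly and by structure. Of the 7 tested members of the multisynthetase complex, 3 rose (Iars, Mars1 and Eprs), with a median difference of 0.64, and of the other 12, 4 rose (Yars, Aars, Sars and Gars), with a median of 0.74. Synthetases fall into 2 unrelated folds, called class I and class II. Among the 9 class I cytosolic genes 3 rose, with a median of 0.47, and among the 9 class II genes 3 rose, with a median of 0.76, while Eprs joins an enzyme of each class. The difference between classes was not tested. Over all tested genes the share that rose was 3.76%.

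Among mitochondrial genes, Tars2 rose. This threonine enzyme read 351, 602, 406, 501 and 399 in controls and 896, 715, 877, 655 and 818 in Mll-deficient cells, with no overlap, and rose by 0.80 ± 0.20 (SE, limma adjusted p = 0.0292). Its call failed in 6 of 10 fits with an array removed. The call also failed with the replicate block, with the Tars2 probe sets averaged and without probe sets ending in _s_at or _x_at. Its other probe set, at 0.87 ± 0.33, did not pass (limma adjusted p = 0.169 over probe sets). Yars2, for tyrosine, had the largest mitochondrial difference, 0.87 ± 0.27 (SE, limma adjusted p = 0.0668), with control replicate 5 at 289 inside the Mll-deficient range of 195 to 372. Without control replicate 5 its difference was 1.07 (limma adjusted p = 0.0147).

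A further 3 mitochondrial genes did not overlap between the groups and did not pass. Nars2, for asparagine, read 82.5 to 139 in controls and 146 to 266 in Mll-deficient cells (0.75 ± 0.22, limma adjusted p = 0.0574), and with its probe sets averaged was at 0.38 (limma adjusted p = 0.182). Lars2, for leucine, read 227 to 316 and 328 to 509 (0.69 ± 0.20, limma adjusted p = 0.0506), and with its probe sets averaged was at 0.20 (limma adjusted p = 0.541). Vars2, for valine, read 49.3 to 85.5 and 97.0 to 135 (0.69 ± 0.21, limma adjusted p = 0.0601). With Tars2, 4 mitochondrial genes had all Mll-deficient arrays above all controls, as did 8 cytosolic ones, against 4.42% of all tested genes, and 0 synthetase genes had them all below, against 2.54% (6.96% in either direction). The remaining tested genes were Sars2 (serine, 0.69), Iars2 (isoleucine, 0.48), Aars2 (alanine, 0.41), Rars2 (arginine, 0.36), Cars2 (cysteine, 0.21), Hars2 (histidine, 0.20), Fars2 (phenylalanine, 0.12), Ears2 (glutamate, 0.02), Pars2 (proline, -0.03) and Wars2 (tryptophan, -0.10), each overlapping between the groups. Sars2 was dim, at 14.1 ± 10.4 in controls and 33.1 ± 20.5 in Mll-deficient cells (SD, n = 5 each), and Mars2, the methionine enzyme below the filter, read 7.19 ± 4.74 and 8.14 ± 4.27.

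For 12 amino acids both a cytosolic and a mitochondrial gene were tested. Both differences were above 0 for 11 of the 12. Tryptophan was the exception, with Wars at 0.80 and Wars2 at -0.10, and Wars2 had a wide SE of 0.37. The cytosolic difference was the larger for 8 of the 12. The mitochondrial one was the larger for cysteine (0.21 against 0.14), leucine (0.69 against 0.35), asparagine (0.75 against 0.56) and valine (0.69 against 0.43). Whether the compartments differed was not tested. The cytosolic minus mitochondrial array mean was 1.94 ± 0.22 in controls and 2.18 ± 0.09 in Mll-deficient cells (SD, n = 5 each), and control replicate 2, at 2.22, lay within the Mll-deficient range of 2.09 to 2.31.

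**Figure D4:**
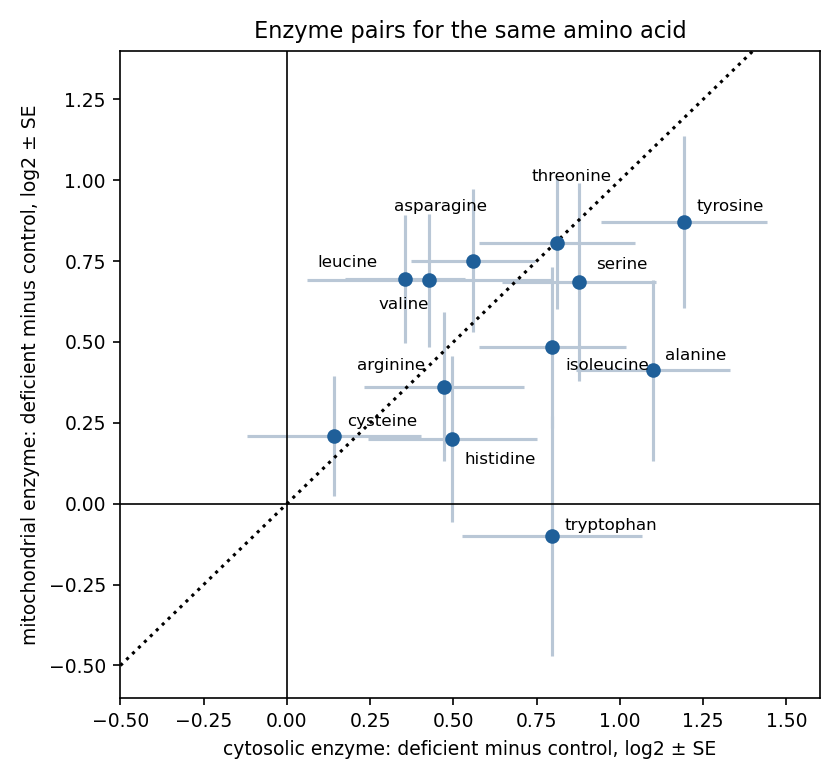
Difference (Mll-deficient minus control, log2, ± SE) of the cytosolic enzyme gene (horizontal) against that of the mitochondrial enzyme gene (vertical) for 12 amino acids, with n = 5 arrays per group. The dotted line marks equal differences: 8 points lie below it, and only tryptophan lies below 0 on the vertical axis.

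Genes that work with the cytosolic enzymes had values on the same side. The multisynthetase complex is held together by Aimp1, Aimp2 and Eef1e1, of which 0 passed in limma, while all 3 were higher at an unadjusted p under 0.05. Eef1e1 differed by 0.80 ± 0.23 (SE, limma adjusted p = 0.0517), Aimp2 by 0.92 ± 0.33 (limma adjusted p = 0.115) and Aimp1, given to complete the set, by 0.53 ± 0.23 (limma adjusted p = 0.198). Of 5 relatives and editing factors 0 passed and 2 were higher at an unadjusted p under 0.05, the synthetase-like gene Tarsl2 (0.63 ± 0.20, limma adjusted p = 0.0861) and the alanyl editing gene Aarsd1 (0.75 ± 0.29, limma adjusted p = 0.144).

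Of 17 tested genes of tRNA maturation, 3 rose and 0 fell, all 3 subunits of RNase P and the related RNase MRP, which trim precursor tRNA and ribosomal RNA. Pop1 read 89.8, 137, 188, 134 and 158 in controls and 507, 306, 260, 399 and 322 in Mll-deficient cells, and rose by 1.25 ± 0.24 (SE, limma adjusted p = 0.00668), or by 0.83 with its probe sets averaged. Rpp40 rose by 0.86 ± 0.20 (limma adjusted p = 0.0211) and Rpp14 by 0.83 ± 0.22 (limma adjusted p = 0.0396), and as arrays were removed singly these 2 calls failed in 4 and 8 of 10 fits. Without probe sets ending in _s_at or _x_at Rpp40 was at 0.42 (limma adjusted p = 0.400). Rpp30 and Rpp21, other subunits, did not pass (0.57 ± 0.23 and 0.57 ± 0.25, limma adjusted p = 0.168 and 0.197). The list's median was 0.38, and over all tested genes 3.76% rose and 1.75% fell. Of 22 subunits and factors of RNA polymerase III, which transcribes tRNA genes, 0 passed in limma, 4 were higher at an unadjusted p under 0.05, and the median was 0.25. Polr3k (0.84 ± 0.25, limma adjusted p = 0.0624) and Polr1c (0.57 ± 0.19, limma adjusted p = 0.102) were nearest.

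Of 23 mitochondrial charging partners and translation factors, 3 rose and 0 fell, with a median of 0.29. The shares over all tested genes were 3.76% and 1.75%. Tufm, the elongation factor that brings charged tRNA to the mitochondrial ribosome, read 408, 625, 677, 605 and 517 in controls and 1345, 886, 1254, 1443 and 1263 in Mll-deficient cells, with a clear gap, and rose by 1.11 ± 0.21 (SE, limma adjusted p = 0.00611). Gfm1, the translocation factor, rose by 1.07 ± 0.22 (limma adjusted p = 0.0105), and Pus1, a tRNA pseudouridine synthase, by 1.15 ± 0.27 (limma adjusted p = 0.0217), a call that failed in 5 of 10 fits with an array removed. Without probe sets ending in _s_at or _x_at, Tufm (1.22, limma adjusted p = 0.103) and Gfm1 (0.54, limma adjusted p = 0.181) did not pass. Tsfm, the exchange factor of Tufm (0.73 ± 0.22, limma adjusted p = 0.0622), and the ribosome recycling factor Mrrf (0.65 ± 0.19, limma adjusted p = 0.0565) did not pass.

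Of 30 tested genes of the amino acid response, 4 rose, 0 fell and 26 did not pass, with a median of 0.32. Over all tested genes 3.76% rose and 1.75% fell. Asns, the asparagine synthetase gene and a standard Atf4 target, read 377, 586, 428, 469 and 651 in controls and 1750, 758, 1752, 1213 and 1712 in Mll-deficient cells, and rose by 1.45 ± 0.25 (SE, limma adjusted p = 0.00397). Slc7a5, a transporter of large neutral amino acids, rose by 1.41 ± 0.24 (limma adjusted p = 0.00290), Shmt2, the mitochondrial serine hydroxymethyltransferase gene, by 1.27 ± 0.23 (limma adjusted p = 0.00497) and Aldh18a1, of proline synthesis, by 1.09 ± 0.25 (limma adjusted p = 0.0177). For all 4 of these, every Mll-deficient array lay above every control, as for 4.42% of all tested genes. Aldh18a1 missed the threshold without control replicate 1 (limma adjusted p = 0.0516) and with its probe sets averaged (0.48, limma adjusted p = 0.0943). Phgdh, of serine synthesis, did not overlap either but did not pass (0.71 ± 0.21, limma adjusted p = 0.0583), and Cebpb lay at -0.72 ± 0.26 (limma adjusted p = 0.127). Some other members of the list that are tied to the stress arm of the response were named after their values were seen. These did not pass: Atf4 at 0.03 ± 0.32, Ddit3 at 0.54 ± 0.22, Trib3 at -0.46 ± 0.42 and Chac1 at -0.75 ± 0.30 (limma adjusted p = 0.968, 0.177, 0.596 and 0.164). Being picked, they do not stand for the list, in which 22 differences were above 0 and 8 below. At an unadjusted p under 0.05 in limma, 8 of its genes were higher and 2 lower, against 10.5% and 10.2% of all tested genes. Only RNA was read here, and the activity of Gcn2 and of the Atf4 protein was not measured. Of 7 genes of the Gcn2 pathway and the eIF2 alpha kinases, 0 passed in limma, with 1 higher and 1 lower at an unadjusted p under 0.05, Gcn1 (0.52 ± 0.23, limma adjusted p = 0.203) and Eif2ak3 (-0.55 ± 0.23, limma adjusted p = 0.181), and a median of -0.02.

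**Figure D5:**
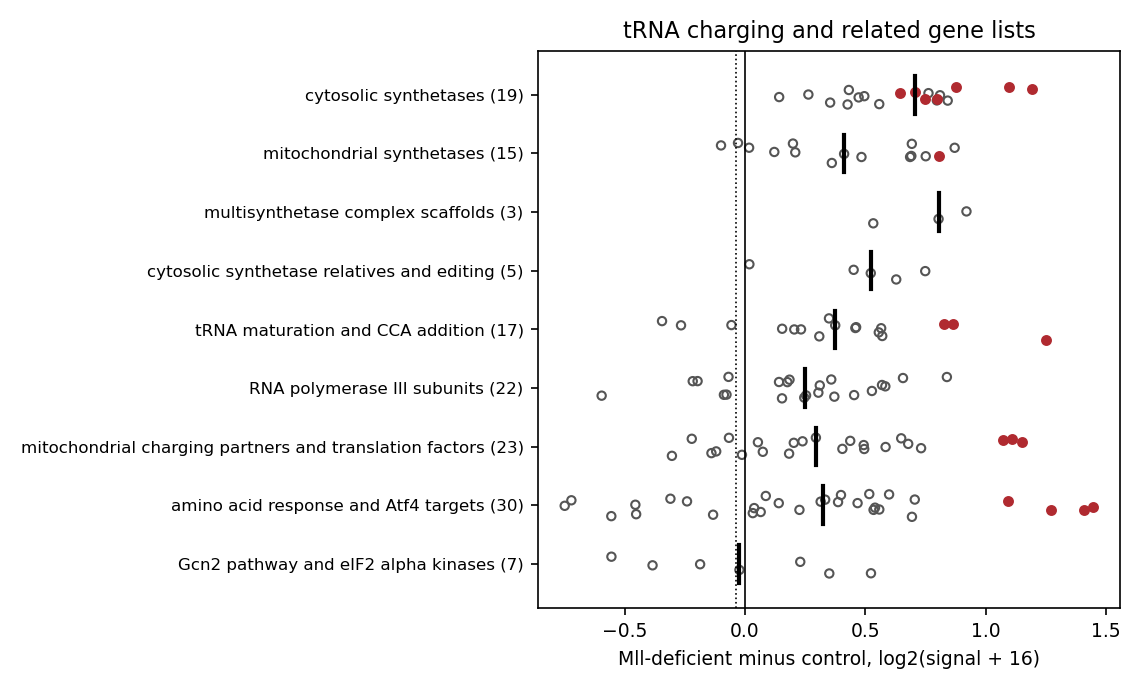
Difference (Mll-deficient minus control, log2) of each tested gene in the synthetase groups and in 7 related lists, with the number of tested genes in brackets. Filled points passed the limma test, thick bars are list medians (0.71 for cytosolic synthetases, -0.02 for the Gcn2 pathway), the dotted line is the median of all tested genes, and vertical scatter within a row has no meaning.

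Erythroid genes were higher in the same group as the synthetases, and their part in these results was not tested. Of 23 erythroid markers 19 were named and tested, of which 15 rose and 0 fell, with a median of 1.57, and those with the smallest p were Klf1 (3.00 ± 0.27, limma adjusted p = 2.53e-05), Blvrb (2.52 ± 0.30, limma adjusted p = 4.49e-04) and Tspan33 (2.35 ± 0.32, limma adjusted p = 6.59e-04). Their mean log2 level was 6.70 to 8.37 on control arrays and 9.30 to 9.68 on Mll-deficient arrays. Over all tested genes 3.76% rose and 1.75% fell. Of 12 tested stem cell markers 3 fell, Mecom (-2.83 ± 0.38), Hlf (-1.48 ± 0.40) and Hoxa9 (-1.43 ± 0.27; limma adjusted p = 6.59e-04, 0.0384 and 0.00590), and the list's array means did not overlap, by a narrow margin, at 7.98 to 8.86 in controls and 7.10 to 7.96 in Mll-deficient cells. With its probe sets averaged Mecom was at -0.93. The call of Hlf failed in 7 of 10 fits with an array removed. Array means of the other 3 marker lists overlapped between the groups. The granulocyte and monocyte list was bright in both groups. Its array means were 11.6 to 12.2 in controls and 11.9 to 12.6 in Mll-deficient cells, where all tested genes averaged 7.53 to 7.58. Which of the sorted cells gave this signal was not tested. Of 14 granulocyte and monocyte markers 0 passed in limma (4 higher and 2 lower at an unadjusted p under 0.05), with Mmp9 at -1.03, Itgam at -0.73 and Prtn3 at 0.68 nearest (limma adjusted p = 0.114, 0.119 and 0.177). Of 10 megakaryocyte markers 0 passed (0 higher and 2 lower at that unadjusted p), with Gp1bb at -0.84, Vwf at -1.08 and Itgb3 at -0.48 nearest (limma adjusted p = 0.207, 0.210 and 0.264). Of 10 B, T and natural killer cell markers Il7r fell (-1.37 ± 0.38, limma adjusted p = 0.0443), a call that failed in 6 of 10 fits with an array removed, and Nkg7 (0.96 ± 0.28) and Ebf1 (-0.86 ± 0.51) did not pass. Among genes of the sorting gate, Kit read 126 ± 34.2 in controls and 72.3 ± 27.0 in Mll-deficient cells (SD, n = 5 each; -0.73 ± 0.27, limma adjusted p = 0.132). Every Mll-deficient array lay below every control for Kit, as for 2.54% of all tested genes. Cd48 read 109 ± 63.1 and 124 ± 41.5, and Ly6a, which encodes Sca-1, was not analysed here.

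The targeted gene had 2 probe sets, and neither passed: Kmt2a differed by -0.38 ± 0.35 on the brighter and by -0.55 ± 0.31 on the dimmer (limma adjusted p = 0.634 and 0.347 over probe sets). Their position relative to the deleted part is unknown here, and they are no check of the labels. Control replicate 5 was unlike its group, correlating at 0.926 on average with the remaining controls, and had the highest ratio of 3' to middle control probe sets, a sign of RNA quality, at 5.19 on the log2 scale, where the other arrays had 1.73 to 3.86. Without it the calls were 9 cytosolic and 4 mitochondrial, and with that ratio as a covariate 12 and 5, so both counts were larger. The share of all tested genes that passed was larger too, at 6.97% without control replicate 5 and 12.9% with the covariate. In the reported fit 693 genes passed, 5.51% of those tested.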

How the data were processed

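RNA of LSK/CD48- cells from 5 Mll-deficient and 5 control mice was hybridised to Affymetrix mouse expression arrays, with each mouse on its own array. Per the submitters' processing notes the software was MAS5 5.0. The deposited table holds a linear intensity for every probe set, and on every array their mean without the lowest and highest 2% was 150.001. This scaling removes differences in total RNA per cell, and amplification of little RNA favours the 3' ends of transcripts. Of 45101 probe sets, 34945 named 1 gene, 932 several (not used) and 9224 none or controls. Gene symbols were brought up to date by Entrez identifier from RefSeq's table for GRCm38.p6 (34741 found, 204 not). For each of 18193 genes the probe set of highest average log2(signal + 16) was taken, an offset that understates changes of dim genes, and 12582 genes, those whose average exceeded the 40th percentile over probe sets, were tested with limma 3.58.1 in R 4.3.3 (lmFit, eBayes with intensity trend, two-sided, Benjamini-Hochberg adjustment, threshold 0.05). Probe sets were tested in the same way. Precision is limited by how few arrays there are. The procedure was tested on simulated data.

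The members and gene lists were chosen with earlier results of these data known. Every member is named. Of each pathway list the genes past the threshold and up to 2 more with the smallest p are named, and of each marker list up to 3. Aimp1, Atf4, Ddit3, Trib3 and Chac1 were named outside this rule, after their values were seen. Promoter motifs and the grouping by class were chosen after the values were seen. Whether same-numbered arrays were processed together is not known here. Deviations of same-numbered arrays correlated at 0.0796, 0.0937, -0.174, -0.228 and 0.277. Each control array correlated best with an Mll-deficient array of another number, but this cannot exclude shared processing.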

Additional observations from a re-analysis of the deposited data

Results flagged for a closer look

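In 152 groups of 5 arrays, covering the synthetase genes, the genes named by rule from the other lists and the synthetase array means, in each group, 7 had an array whose gap to its nearest neighbour exceeded Dixon's critical value of 0.71 times the group's range on the log2 scale. Chance flags about 1 in 20 groups.

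Among the 70 groups of synthetase genes there was 1: Cars read 3.51 in control replicate 3, against 20.7 to 30.6 in the other controls (gap of 0.725 of the range). In the related genes, Rpp30 read 340 in Mll-deficient replicate 1 against 518 to 577 in the others (0.794), Tufm read 886 in Mll-deficient replicate 2 against 1254 to 1443 (0.711), and Aldh18a1 read 286 in control replicate 1 against 470 to 554 (0.750). Among markers, Itgb3 read 444 in control replicate 5 against 712 to 818 (0.772), Ebf1 read 58.3 in control replicate 2 against 336 to 524 (0.785), and Il7r read 31.6 in Mll-deficient replicate 1 against 122 to 155 (0.832). In each of these 7 groups the array that stood apart was the lowest.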

How the results depend on the processing

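The direction of the medians was kept under all 12 alternatives and in all 10 fits that left out 1 array, while the counts of calls were not. The alternative without probe sets ending in _s_at or _x_at was chosen after seeing the data. The cytosolic count of 7 was 4 with no filter and with no intensity trend, 2 with the replicate block, 3 without _s_at or _x_at probe sets and 12 with the RNA quality covariate, and 2 to 9 when an array was left out. The mitochondrial count of 1 was 2 with offset 64, 3 with quantile normalization and with centring on array medians, 4 with the filter at the 60th percentile, 5 with array weights and with the RNA quality covariate, 0 with the replicate block and without _s_at or _x_at probe sets, and 0 to 4 when an array was left out. The count over all genes was 1618 with the RNA quality covariate and 316 to 875 when an array was left out. With all probe sets averaged the counts stayed at 7 and 1, but 4 of the 8 calls were kept. Aars, Eprs, Sars and Tars2 were lost, and Farsb, Hars, Tars and Yars2 were gained. Without _s_at or _x_at probe sets the calls left were Gars, Mars1 and Yars, which have 1 probe set each. The cause of these changes was not tested. The replicate block kept 2 of the 8 calls. It treats same-numbered arrays as processed together, and whether they were is not known here.

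The cytosolic median of 0.71 was 0.56 without _s_at or _x_at probe sets, and 0.62 to 0.74 when an array was left out. The mitochondrial median of 0.41 was 0.50 with offset 1, 0.30 with offset 64, 0.53 with quantile normalization, 0.20 with all probe sets averaged and 0.31 with array weights, and 0.34 to 0.49 when an array was left out. Among single genes, 616 values under these settings kept their direction and side of the threshold, 67 lost and 44 gained a call, and 19 changed sign, all of them in genes that had not passed. With all probe sets averaged Cars2 was at -0.18 and Hars2 at -0.032, Ears2 was at -0.020 with the RNA quality covariate, Pars2 at 0.053 with quantile normalization and 0.032 with centring, and Wars2 at 0.073 with array weights. When an array was left out, Cars ranged from -0.083 to 0.23, Fars2 from -0.046 to 0.30, Ears2 from -0.11 to 0.14, Pars2 from -0.14 to 0.10 and Wars2 from -0.36 to 0.16. Signals near background, as for Mars2, Cars and Sars2, limit what can be read from dim genes.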
